A study of Mus musculus with 28 samples.

Results

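Mitochondrial ribosomal proteins were followed in regulatory T (Treg) cells, as the mouse genes whose symbol starts with Mrpl or Mrps and a digit. Of 82 such symbols among 43430 gene IDs, 5 pseudogenes were left out, and the other 77 reached a mean CPM (read counts per 1000000 counts of a library) of 1 in at least 1 of 3 count tables. By structures of the mammalian mitoribosome, 50 of the 77 proteins belong to the large subunit and 26 to the small one, and Mrps36 is now placed with the 2-oxoglutarate dehydrogenase complex. Of the 76 ribosomal ones, 45 have a bacterial counterpart and 31 are specific to mitochondria.

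The mitochondrial ribosome translates the mRNAs of mitochondrial DNA, which encode core subunits of the respiratory chain and of ATP synthase. Its rRNAs come from mitochondrial DNA, while all of its proteins are encoded in the nucleus, made in the cytosol and imported. Treg cells are CD4+ T cells that express the transcription factor Foxp3 and restrain other immune cells.

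RNA of sorted CD4+ YFP-Foxp3+ CD25+ cells from C57BL/6NJ mice was sequenced in 28 libraries. RISP KO and RISP WT cells came from 3-week-old mice (groups RISP_KO and RISP_WT, 4 libraries each, Takara SMART-Seq v4 and Nextera XT kits). RISP is the Rieske iron-sulfur protein of respiratory complex III, encoded by Uqcrfs1. RISP KO and RISP WT cells of chimeras aged 8 to 12 weeks made up RISP_Chimera_KO and RISP_Chimera_WT (4 libraries each, NEB NEBNext Ultra I after poly(A) selection). In the in vitro experiment, RISP WT cells of 3-week-old mice were exposed to 1 µM Piericidin, which inhibits complex I, to 500 µM 3-NPA, which inhibits complex II, or to 1 µM AntimycinA, which inhibits complex III, or were left Untreated (3 libraries each, NEB kit). All mice thus shared the strain and the sorted phenotype, and all in vitro cells carried the RISP WT genotype. The labels name neither the Cre driver behind the deletion nor the cells that the chimeric hosts retained, and do not say whether replicates were separate mice. The p-values below therefore reflect the variation among libraries only, and that variation may be technical.

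Libraries held 28446051 to 50769961 counts in the 3-week-old table, 20437386 to 31019835 in the chimera table and 2707199 to 3445930 in vitro. CPM of single libraries below are scaled by the trimmed mean of M-values (TMM), and fold changes are log2 values from edgeR's quasi-likelihood test. Their standard errors (SE) were derived from the fitted coefficient, without the prior count, and the F statistic of that test. A gene is called where its p, adjusted by Benjamini-Hochberg over all genes tested, is under 0.05. Uqcrfs1 read 7.28, 5.63, 5.20 and 6.48 CPM in RISP_KO, against 189, 151, 186 and 174 CPM in RISP_WT (-4.83 ± 0.14, adjusted p = 2.19e-08). In chimeras it read 4.88, 11.3, 4.83 and 6.01 CPM in the knockout cells, against 82.5, 87.7, 83.7 and 72.7 CPM in the wild-type cells (-3.60 ± 0.23, adjusted p = 1.26e-05). Foxp3 ranged over 25.1 to 38.2 CPM in RISP_KO, against 30.3 to 35.8 CPM in RISP_WT, and in chimeras over 469 to 512 CPM in knockout cells, against 385 to 503 CPM in wild-type cells. In vitro Foxp3 ranged over 531 to 824 CPM. The 7 Treg cell markers summed to at least 3308 CPM in every library. Of them, 1 rose in RISP_KO (Il2ra, which encodes CD25), none was called in chimeras or with 3-NPA, 2 rose with Piericidin, and with AntimycinA 2 rose and 1 fell.

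In RISP_KO cells, 2 mitochondrial ribosomal protein mRNAs rose and none fell among the 76 tested, where 9.86% of all genes tested were called. The 2 were Mrps34, a mitochondrion-specific protein of the small subunit, and Mrpl19, a large-subunit protein with a bacterial counterpart. The shift of the whole family was small. Its median log2 fold change was 0.09, beside 0.00 for all genes, and the members lay between -0.25 and 0.53 with a median SE of 0.11. Values above 0 were found for 58 members, and 16 members (21.1%) had an unadjusted p under 0.05, against 25.5% of all genes tested. In bulk samples, fewer cells of a type and less RNA per cell cannot be told apart.

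**Figure D1:**
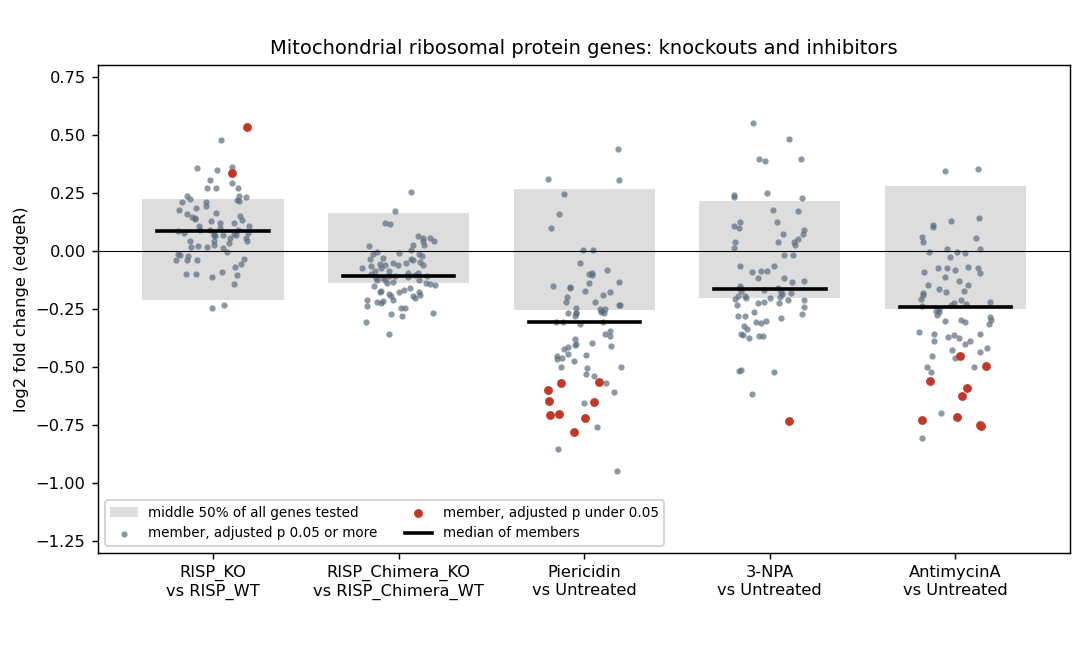
Log2 fold changes (edgeR) of mitochondrial ribosomal protein genes in 5 comparisons, 1 point per gene, with called genes in red, the median of the genes as a black line and the middle 50% of all genes tested as a grey band. The medians were 0.09 for RISP_KO, -0.11 for RISP_Chimera_KO, -0.31 for Piericidin, -0.16 for 3-NPA and -0.24 for AntimycinA, each against its control, and the last 3 share the Untreated libraries.

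Mrps34 (chromosome 17, 24895116 to 24897502, plus strand, mm10) read 26.6, 21.8, 20.6 and 20.5 CPM in RISP_KO, against 14.6, 15.9, 16.02 and 15.3 CPM in RISP_WT. Every knockout library lay above every wild-type library. The difference was 0.53 ± 0.13 (edgeR adjusted p = 0.0241). Its exons share bases with Nme3 on the same strand and Mapk8ip3 on the opposite strand. Reads of the bases shared with Nme3 cannot be told apart by strand. The strand setting of the counting is not given in the sources used here, so reads of opposite-strand pairs cannot be told apart either. Mrpl19 (chromosome 6, 81957851 to 81965958, minus strand) read 54.2, 55.7, 49.7 and 52.0 CPM in RISP_KO, against 39.1, 42.2, 41.7 and 44.7 CPM in RISP_WT. These groups did not overlap either, and the difference was 0.33 ± 0.09 (adjusted p = 0.0351). Mrpl19 shares exon bases with Gcfc2 on the opposite strand. Of the 77 genes, 31 share exon bases with another gene of the tables, 23 of them with a protein-coding one.

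Both calls depended on single libraries. Without any 1 of the 4 RISP_WT libraries no mitochondrial ribosomal protein gene was called, with adjusted p up to 0.0714 for Mrps34 and 0.108 for Mrpl19. Without RISP_KO replicate 1 or 2 there was 1 call, without replicate 3 there were 2, and without replicate 4 there were 5. Mrps34 kept its call without any 1 RISP_KO library, while Mrpl19 lost its call without RISP_KO replicate 1, 2 or 3. DESeq2 called 8, all higher.

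The next values of the knockout were not called. Mrpl45, a mitochondrion-specific protein by which the large subunit faces the inner membrane, read 98.9, 69.6, 62.3 and 70.4 CPM in RISP_KO, against 47.7, 56.3, 53.0 and 59.5 CPM in RISP_WT (0.48 ± 0.14, adjusted p = 0.0597). Mrps10, a small-subunit protein with a bacterial counterpart, read 44.5, 41.0, 35.2 and 36.5 CPM in RISP_KO, against 31.2, 32.5, 30.1 and 28.8 CPM in RISP_WT (0.36 ± 0.11, adjusted p = 0.0603). In both genes the knockout libraries lay above all wild-type libraries, and replicate 1 was the highest. These 2 genes were chosen after their values were seen.

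Summed over the 77 genes, the family took 0.525, 0.478, 0.442 and 0.404% of the counts of the RISP_KO libraries, against 0.419, 0.427, 0.439 and 0.455% of the RISP_WT libraries. The knockout libraries spread over a wider range, with replicate 1 at the top and replicate 4 below every wild-type library, so the groups overlapped. Means were 0.462 ± 0.0518% in RISP_KO and 0.435 ± 0.0157% in RISP_WT (SD, n = 4 each). Without RISP_KO replicate 1 the median log2 fold change of the family was 0.03. Large-subunit genes (median 0.09, 1 of 49 called) and small-subunit genes (median 0.07, 1 of 26 called) were close to each other.

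**Figure D2:**
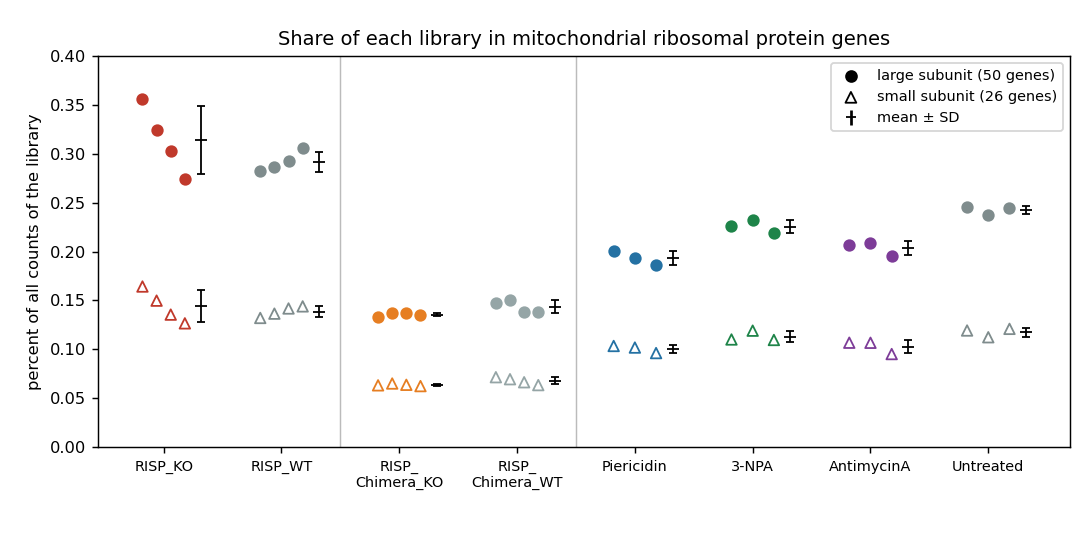
Share of each library's counts in the 50 large-subunit genes (filled circles) and the 26 small-subunit genes (open triangles), in percent, with mean ± SD per group. Large-subunit shares were 0.314 ± 0.0349% in RISP_KO and 0.292 ± 0.0102% in RISP_WT, while all Piericidin and AntimycinA libraries lay below all Untreated libraries in both subunits.

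Some markers of other cells moved with this comparison. Of 8 measured monocyte or macrophage markers, 3 fell (Adgre1, Csf1r and C1qb), and the list summed to 4.19 to 10.3 CPM in RISP_KO, against 9.39 to 45.9 CPM in RISP_WT. B cell markers summed to 24.3 to 33.2 CPM in RISP_KO, against 43.5 to 57.3 CPM in RISP_WT, with 1 of 5 lower (Cd79b). Most of that sum was Cd79b (mean 22.6 CPM in RISP_KO, against 40.4 CPM in RISP_WT). Cd22, alone of the 5, had a log2 fold change above 0 (1.30, edgeR adjusted p = 0.0671). Dendritic cell markers had 1 of 3 lower (Xcr1) and summed to 3.11 to 5.84 CPM in RISP_KO, against 5.52 to 6.70 CPM in RISP_WT. Plasma cell markers had 1 of 3 higher, Xbp1, a transcription factor that other cells also use, and summed to 358 to 435 CPM in RISP_KO, against 188 to 249 CPM in RISP_WT. Nearly all of that sum was Xbp1 (mean 380 CPM in RISP_KO, against 214 CPM in RISP_WT). Jchain and Sdc1 had means below 1 CPM in both groups, with log2 fold changes below 0 that were not called. None of the 5 erythroid, 2 CD8 T cell or 1 measured natural killer cell markers was called. Of 10 markers of dividing cells, 1 rose (Top2a), with sums of 782 to 1179 CPM in RISP_KO, against 668 to 789 CPM in RISP_WT. The part of these cells in the 2 calls was not tested.

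In RISP_Chimera_KO cells no mitochondrial ribosomal protein gene was called among 77 tested, by edgeR or by DESeq2, where edgeR called 0.708% of all genes. By either tool, 7 of the 77 (9.09%) had an unadjusted p under 0.05, against 12.9% of all genes tested by edgeR. The median log2 fold change was -0.11, beside 0.00 for all genes, with 64 values below 0, a range of -0.36 to 0.25 and a median SE of 0.12. The family took 0.198, 0.203, 0.202 and 0.199% of the counts of the knockout libraries (mean 0.2004 ± 0.00264%), against 0.2203, 0.222, 0.206 and 0.203% of the wild-type libraries (mean 0.213 ± 0.00962%, SD, n = 4 each). The highest knockout library and the lowest wild-type library were nearly level.

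The smallest p-values among them belonged to Mrpl18 and Mrps7. Mrpl18, a protein of the central protuberance of the large subunit, read 31.9, 35.5, 35.5 and 37.2 CPM in RISP_Chimera_KO, against 42.6, 50.7, 42.0 and 38.3 CPM in RISP_Chimera_WT (-0.31 ± 0.10, adjusted p = 0.209). Mrps7, a protein of the head of the small subunit, read 25.0, 28.4, 27.5 and 26.6 CPM in RISP_Chimera_KO, against 33.6, 36.1, 30.6 and 29.7 CPM in RISP_Chimera_WT (-0.27 ± 0.10, adjusted p = 0.252). In neither gene did the groups overlap, and neither passed the threshold. Of the 2 genes called in the 3-week-old knockout, Mrps34 read 11.6, 12.3, 9.21 and 11.9 CPM in RISP_Chimera_KO, against 14.6, 14.0, 10.8 and 13.0 CPM in RISP_Chimera_WT (-0.22 ± 0.15, adjusted p = 0.596). Mrpl19 read 25.0, 25.1, 34.7 and 27.9 CPM in RISP_Chimera_KO, against 28.2, 30.5, 24.8 and 24.9 CPM in RISP_Chimera_WT (0.06 ± 0.13, adjusted p = 0.896). Here the groups overlapped for both genes. In chimeras 1 of 10 markers of dividing cells rose (Cenpe), with sums of 81.7 to 183 CPM in the knockout cells, against 57.9 to 75.9 CPM in the wild-type cells, and no marker of another cell type was called.

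The knockout effect in chimeras minus that in 3-week-old mice was fitted over all 16 libraries of both tables. Its median over 77 genes was -0.23, beside -0.01 for all genes, and 71 values were below 0. Mrps34 alone was called (-0.77 ± 0.19, adjusted p = 0.0296), where 3.27% of all genes were called. An unadjusted p under 0.05 was found for 17 of the 77 (22.1%), against 16.7% of all genes. Leaving out 1 library gave 0 to 2 calls, with 0 without any 1 RISP_WT library, RISP_KO replicate 1, RISP_Chimera_KO replicate 3, or RISP_Chimera_WT replicate 1 or 2. Without these libraries the adjusted p of Mrps34 reached 0.0736. There were 2 calls without RISP_KO replicate 3 or 4 or RISP_Chimera_KO replicate 2. The 2 tables differ in the age of the mice, in chimerism and in the library kit, and these cannot be told apart.

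**Figure D3:**
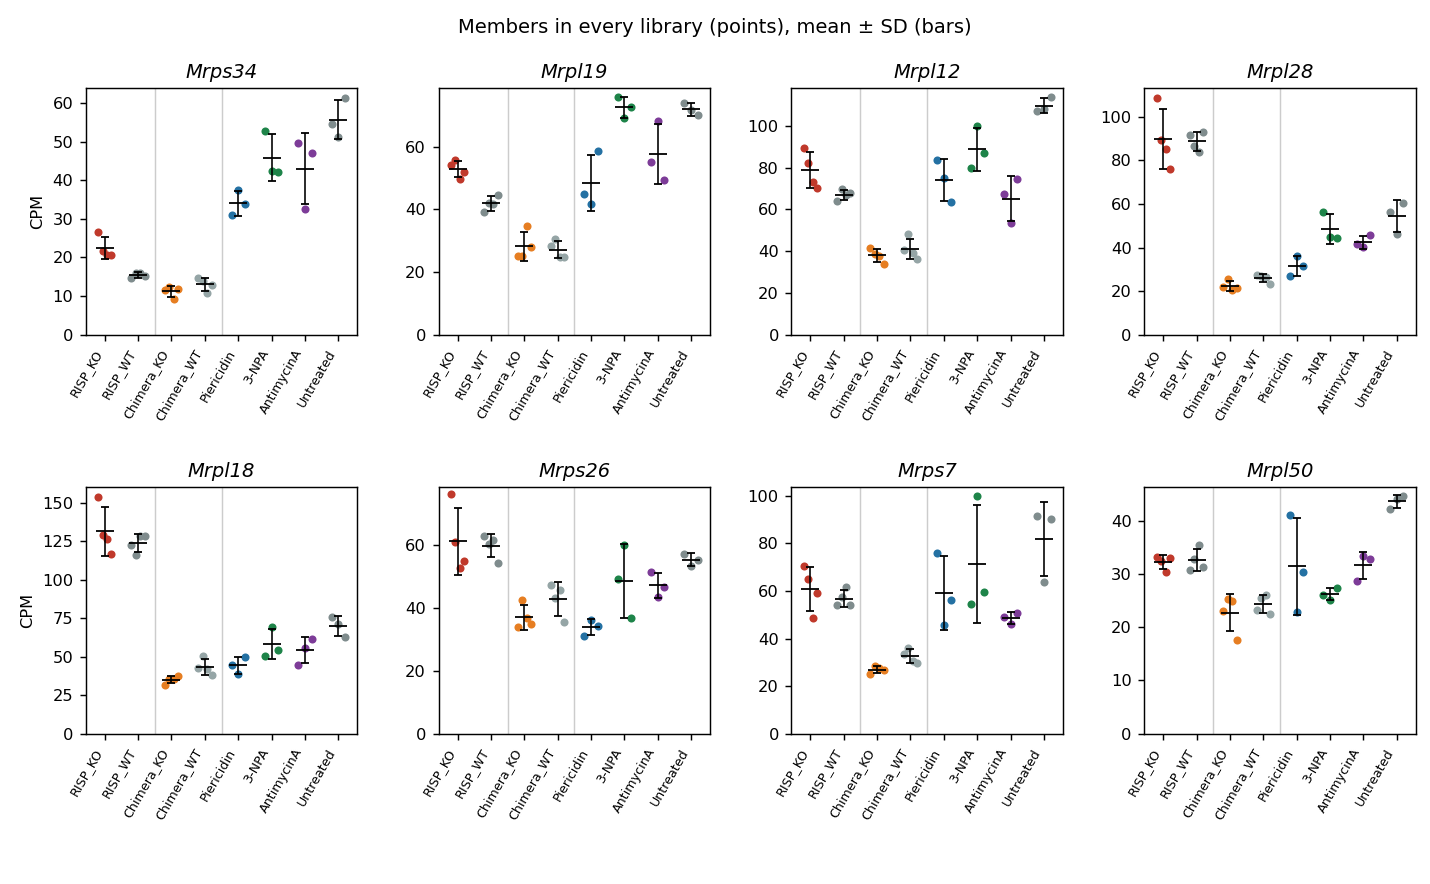
CPM (TMM-scaled) of 8 named genes in every library (points), with mean ± SD (bars) for each group, tables separated by vertical lines and normalized separately. Mrps34 stood higher in all RISP_KO than in all RISP_WT libraries, and Mrpl12, Mrpl28, Mrps26 and Mrps34 stood lower in all Piericidin than in all Untreated libraries.

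Piericidin lowered 9 of the 76 mitochondrial ribosomal protein mRNAs tested in vitro and raised none, where 13.6% of all genes were called in either direction. The family as a whole lay lower. Its median log2 fold change was -0.31, beside 0.01 for all genes, 68 values were below 0, and the members ranged over -0.95 to 0.44 with a median SE of 0.20. An unadjusted p under 0.05 was found for 29 of the 76 (38.2%), against 25.7% of all genes. The genes took 0.304, 0.296 and 0.283% of the counts of the Piericidin libraries, against 0.365, 0.350 and 0.366% of the Untreated libraries, with no overlap.

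Of the 9, 7 were large-subunit genes (of 49 tested, median -0.34) and 2 small-subunit genes (of 26, median -0.26). Mrpl28, a large-subunit protein with a bacterial counterpart (chromosome 17, 26123520 to 26126613, plus strand), read 27.0, 36.0 and 31.6 CPM with Piericidin, against 56.2, 46.2 and 60.5 CPM in Untreated cells (-0.78 ± 0.19, adjusted p = 0.00359). Mrpl12, the stalk protein on which translation factors dock (chromosome 11, 120484613 to 120489065, plus strand), read 83.5, 75.0 and 63.7 CPM with Piericidin, against 107, 108 and 114 CPM in Untreated cells (-0.57 ± 0.15, adjusted p = 0.00606). In both genes every Piericidin library lay below every Untreated library. Mrpl18 (chromosome 17, 12911349 to 12916345, minus strand) read 44.7, 38.9 and 49.6 CPM with Piericidin, against 75.7, 71.5 and 62.9 CPM in Untreated cells (-0.65 ± 0.17, adjusted p = 0.00789). Mrps26, a mitochondrion-specific small-subunit protein (chromosome 2, 130563742 to 130568695, plus strand), read 31.0, 36.0 and 34.3 CPM with Piericidin, against 57.2, 53.2 and 55.3 CPM in Untreated cells (-0.71 ± 0.19, adjusted p = 0.00815). In these 2 genes the groups did not overlap either, and the 3 Untreated values of Mrps26 lay close together. Mrpl12 shares exon bases with Gm16755, Mrpl18 with Tcp1 and Mrps26 with 4930473A02Rik, each on the opposite strand. The calls of Mrpl28 and Mrps26 held without any 1 library (highest adjusted p 0.0285 and 0.0352). That of Mrpl12 was lost without Piericidin replicate 3 (adjusted p = 0.0684) and that of Mrpl18 without Piericidin replicate 2 (adjusted p = 0.0565).

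Mrps34 and Mrpl19 were also among the 9, in the direction opposite to their change in RISP_KO cells. Mrps34 read 31.0, 37.5 and 33.7 CPM with Piericidin, against 54.6, 51.2 and 61.2 CPM in Untreated cells (-0.71 ± 0.19, adjusted p = 0.00951). Mrpl19 read 45.1, 41.9 and 58.5 CPM with Piericidin, against 74.1, 71.7 and 70.1 CPM in Untreated cells (-0.56 ± 0.16, adjusted p = 0.0162). For both the groups stood apart. The remaining 3 were large-subunit genes, the mitochondrion-specific Mrpl52 (-0.65, adjusted p = 0.0101) and Mrpl42 (-0.60, adjusted p = 0.0357), and Mrpl34, which has a bacterial counterpart (-0.72, adjusted p = 0.0314). The lowest value of all, -0.95 for Mrpl22, a gene picked after its values were seen, rested on 18 to 31 counts in the Piericidin libraries, against 43 to 63 counts in the Untreated libraries, and was not called (adjusted p = 0.0778). Leaving out 1 library ended the call of Mrps34 without Untreated replicate 3 (adjusted p = 0.0535), of Mrpl19 without Piericidin replicate 1 or 2 or Untreated replicate 1 (up to 0.101) and of Mrpl52 without Piericidin replicate 2 or 3 (up to 0.0908). The call of Mrpl34 was lost without any 1 Piericidin library or Untreated replicate 3 (up to 0.208), and that of Mrpl42 without Piericidin replicate 1 or 3 or any 1 Untreated library (up to 0.196). Both were also lost with no filter on low counts, which left 7 calls.

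Promoters are shown for the 4 genes with the smallest p-values under Piericidin, and the part of their sequence in the changes was not tested. The sequences run from 250 bases before to 50 bases after the start in RefSeq, build GRCm38.p6, 5′ to 3′ on the strand of the gene, with capitals where a motif of ETS factors (CCGGAAG), NRF1 (GCGCANGCG) or YY1 (AAGATGG) matched on either strand. The windows are chr17:26123253-26123552 for Mrpl28, chr11:120484387-120484686 for Mrpl12, chr17:12916042-12916341 for Mrpl18 and chr2:130563507-130563806 for Mrps26.
Mrpl28: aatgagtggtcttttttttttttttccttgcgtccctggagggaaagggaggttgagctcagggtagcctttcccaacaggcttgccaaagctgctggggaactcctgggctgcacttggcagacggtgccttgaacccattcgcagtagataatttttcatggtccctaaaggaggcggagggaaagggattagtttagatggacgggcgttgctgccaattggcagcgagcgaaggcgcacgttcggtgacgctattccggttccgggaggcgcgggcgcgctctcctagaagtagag
Mrpl12: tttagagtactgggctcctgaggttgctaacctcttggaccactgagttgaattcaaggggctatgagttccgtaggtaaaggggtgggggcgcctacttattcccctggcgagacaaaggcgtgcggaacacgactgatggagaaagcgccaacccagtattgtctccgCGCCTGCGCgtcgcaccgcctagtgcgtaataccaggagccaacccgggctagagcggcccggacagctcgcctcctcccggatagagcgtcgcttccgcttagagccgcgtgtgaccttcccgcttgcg
Mrpl18: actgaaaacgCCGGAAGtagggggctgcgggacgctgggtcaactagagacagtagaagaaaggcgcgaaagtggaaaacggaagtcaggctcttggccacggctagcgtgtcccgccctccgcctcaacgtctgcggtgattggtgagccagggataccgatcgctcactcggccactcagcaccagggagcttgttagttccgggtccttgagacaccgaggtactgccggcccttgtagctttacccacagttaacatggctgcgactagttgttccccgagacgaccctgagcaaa
Mrps26: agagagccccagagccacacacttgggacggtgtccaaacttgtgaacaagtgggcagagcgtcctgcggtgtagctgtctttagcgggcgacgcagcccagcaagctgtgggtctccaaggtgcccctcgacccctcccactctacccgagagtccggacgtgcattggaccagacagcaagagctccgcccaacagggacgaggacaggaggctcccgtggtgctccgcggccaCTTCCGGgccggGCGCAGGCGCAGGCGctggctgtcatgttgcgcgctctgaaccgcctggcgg

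The 4 windows shared none of these motifs throughout. Mrpl12 had 1 NRF1 match at -80, Mrpl18 had 1 ETS match at -240, Mrps26 had an ETS match at -14 and overlapping NRF1 matches at -2 and 5, and in Mrpl28 these letters were not found. Positions count from the RefSeq start. The Mrpl18 window lies inside the deposited gene interval (12911349 to 12916345), so its match is not upstream of the deposited start. Over the 68 mitochondrial ribosomal protein genes with a RefSeq window, 35.3% held the ETS motif, against 20.4% of the tested genes and 9.12% of all windows. NRF1 letters stood in 23.5% of the family, against 15.0% of tested genes and 6.47% of all windows, and YY1 letters in 19.1%, against 7.81% and 6.48%. The SP1 motif GGGCGG was in 50% of the family, against 65.8% of tested genes and 35.9% of all windows, the NFY motif CCAAT in 38.2%, against 39.3% and 37.9%, and the E-box CACGTG in 7.35%, against 10.5% and 7.24%. The CRE motif TGACGTCA was in 2.94% of the family, against 3.42% and 1.88%, and the CEBP-ATF motif TGATGNAA in 0 of 68, against 2.13% and 4.06%. All motifs were searched on both strands, and a match describes letters, not binding.

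AntimycinA also lowered 9 of the 76 and raised none, where 15.0% of all genes were called. The median log2 fold change was -0.24, beside 0.02 for all genes, with 65 values below 0, a range of -0.81 to 0.35 and a median SE of 0.20. An unadjusted p under 0.05 was found for 19 of the 76 (25.0%), against 27.0% of all genes. The genes took 0.314, 0.316 and 0.291% of the counts with AntimycinA, against the Untreated shares given above, again with no overlap. Each inhibitor was compared with the same 3 Untreated libraries, so the values of the 3 comparisons are not independent.

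Mrpl12 had the smallest p-value, at 67.5, 53.5 and 74.5 CPM with AntimycinA, against 107, 108 and 114 CPM in Untreated cells (-0.76 ± 0.15, adjusted p = 0.000238). Mrps7, in the head of the small subunit (chromosome 11, 115603925 to 115608036, plus strand), read 49.2, 45.9 and 50.7 CPM with AntimycinA, against 91.6, 63.8 and 90.2 CPM in Untreated cells (-0.75 ± 0.20, adjusted p = 0.00562). Untreated replicate 2 of Mrps7 stood well below the other two, yet above all AntimycinA libraries. Mrpl9, a large-subunit protein with a bacterial counterpart (chromosome 3, 94443336 to 94448708, plus strand), read 61.7, 69.6 and 58.1 CPM with AntimycinA, against 83.5, 92.9 and 91.6 CPM in Untreated cells (-0.50 ± 0.15, adjusted p = 0.0217). Mrps7 shares exon bases with Gga3 and Mif4gd, and Mrpl9 with Oaz3, all on the opposite strand. The calls of Mrpl12 and Mrps7 held without any 1 library (highest adjusted p 0.00587 and 0.0431). That of Mrpl9 was lost without AntimycinA replicate 1 or 3 or Untreated replicate 2 or 3 (up to 0.0942).

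Mrpl34 (chromosome 8, 71464926 to 71465752, plus strand) was called with both inhibitors. It read 24.8, 18.4 and 20.5 CPM with AntimycinA and 18.8, 23.3 and 21.8 CPM with Piericidin, against 29.9, 31.8 and 43.9 CPM in Untreated cells (-0.73 ± 0.23, adjusted p = 0.0264 for AntimycinA). Mrpl20 (chromosome 4, 155802878 to 155809975, plus strand), another large-subunit protein with a bacterial counterpart, read 48.8, 38.6 and 26.5 CPM with AntimycinA, against 50.4, 55.3 and 70.5 CPM in Untreated cells (-0.62 ± 0.20, adjusted p = 0.0271). The AntimycinA libraries of Mrpl20 spread widely, and the highest came close to the lowest Untreated library. The other 4 were Mrps24 (-0.56, adjusted p = 0.0283), Mrpl2, which lies near the peptidyl transferase centre (-0.59, adjusted p = 0.0316), Mrpl15 (-0.46, adjusted p = 0.0334) and Mrpl51 (-0.72, adjusted p = 0.034). Mrps24 shares exon bases with Urgcp and Mrpl51 with Mir3098, both on the same strand. Of the 9, 8 have a bacterial counterpart (of 45 tested, median -0.30), and 1, Mrpl51, is mitochondrion-specific (of 30 tested, median -0.19). With Piericidin these counts were 5 of 45 and 4 of 30. Without AntimycinA replicate 1 or 3 there were 4 calls, without Untreated replicate 1 there were 5 and without Untreated replicate 3 there were 3. Highest adjusted p-values with 1 library left out were 0.176 for Mrpl34 and 0.208 for Mrpl20, in both genes lost without AntimycinA replicate 2 or 3 or Untreated replicate 3. They were 0.141 for Mrps24 and 0.174 for Mrpl15, both lost without AntimycinA replicate 1 or 2 or Untreated replicate 1 or 3. Mrpl2 (up to 0.184) was lost without AntimycinA replicate 1 or 3 or Untreated replicate 1 or 3, and Mrpl51 (up to 0.132) without AntimycinA replicate 1 or 3 or Untreated replicate 1 or 2.

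With 3-NPA, 1 of the 76 fell and none rose, where 3.23% of all genes were called. Mrpl50, a mitochondrion-specific large-subunit protein (chromosome 4, 49512596 to 49521093, minus strand), read 26.0, 25.1 and 27.4 CPM with 3-NPA, against 42.2, 44.1 and 44.6 CPM in Untreated cells (-0.73 ± 0.21, adjusted p = 0.0456). Both groups were tight and stood far apart. With Piericidin it read 41.0, 22.9 and 30.3 CPM (-0.47, adjusted p = 0.139), and with AntimycinA 28.7, 33.3 and 32.8 CPM (-0.46, adjusted p = 0.141). The call was lost (adjusted p up to 0.149) without any 1 library of the 3-NPA, AntimycinA or Untreated groups, or without Piericidin replicate 3, and there were 3 and 2 calls without Piericidin replicate 1 and 2. The median of the family was -0.16, beside -0.01 for all genes, with 52 values below 0 and a range of -0.73 to 0.55. For 7 of the 76 (9.21%) the unadjusted p was under 0.05, against 16.4% of all genes. The family took 0.336, 0.352 and 0.329% of the counts with 3-NPA, which overlapped the Untreated shares. Large-subunit genes took 0.226, 0.232 and 0.219% with 3-NPA, all below the Untreated 0.245, 0.237 and 0.245%, while small-subunit shares overlapped.

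Between inhibitors, 3 pairs were compared, each adjusted over all genes tested within its pair. Doses were 1 µM for Piericidin and AntimycinA and 500 µM for 3-NPA, and exposure times are not given in the sources used here. Piericidin was lower than 3-NPA in 2 of the 76 genes, where 4.29% of all genes were called. Of the 76, 14 (18.4%) had an unadjusted p under 0.05, against 17.7% of all genes. Mrpl19 read 45.1, 41.9 and 58.5 CPM with Piericidin, against 76.0, 69.1 and 72.6 CPM with 3-NPA (-0.58 ± 0.16, adjusted p = 0.0344). Mrps15, a small-subunit protein with a bacterial counterpart, read 34.4, 26.6 and 30.9 CPM with Piericidin, against 51.0, 51.4 and 42.9 CPM with 3-NPA (-0.66 ± 0.20, adjusted p = 0.0472). In both genes the groups did not overlap. Without Piericidin replicate 2, or 3-NPA replicate 1 or 3, neither gene was called (highest adjusted p 0.174 for Mrpl19 and 0.184 for Mrps15), and without Piericidin replicate 1 or 3, 3-NPA replicate 2 or AntimycinA replicate 2 there was 1 call. The median over the family was -0.21, beside 0.00 for all genes.

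No member was called between AntimycinA and Piericidin by edgeR, where 0.736% of all genes were, with 0 calls by DESeq2 and a median of 0.08. There, 7 members (9.21%) had an unadjusted p under 0.05, against 10.5% of all genes. Between AntimycinA and 3-NPA edgeR and DESeq2 called none, where edgeR called 3.98% of all genes, with a median of -0.11. Here 12 members (15.8%) had an unadjusted p under 0.05, against 16.7% of all genes. Without AntimycinA replicate 2 that comparison gave 1 call. A p that misses the threshold does not show that the inhibitors acted alike.

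Markers of dividing cells moved strongly in the same libraries. All 10 fell with Piericidin (median -1.46) and with AntimycinA (median -2.07), and 3 fell with 3-NPA (median -0.61). They summed to 369 to 542 CPM with Piericidin, 751 to 999 CPM with 3-NPA and 173 to 435 CPM with AntimycinA, against 1241 to 1471 CPM in Untreated cells. The part of cell division in the results above was not tested. Of other cell types, no marker was called in vitro against Untreated cells. Natural killer cell markers were at 0 in all 12 libraries. Monocyte or macrophage markers summed to 15.3 to 23.7 CPM. Among them C1qb and C1qc were at 0 in all libraries, while Csf1r had group means of 13.7 to 15.5 CPM. Dendritic cell markers summed to 7.02 to 23.3 CPM and CD8 T cell markers to 5.54 to 21.2 CPM. B cell markers summed to at most 14.9 CPM, and plasma cell markers, nearly all Xbp1, to 144 to 209 CPM.

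The rest of the mitochondrial translation system was followed in lists. A list of 6 measured genes with other symbols held mitoribosomal proteins and Oxa1l, a membrane protein that binds the mitoribosome. None of these 6 was called in a knockout or an inhibitor against its control. Neither was any of 24 measured factors of mitoribosome assembly and rRNA modification. Between inhibitors, 1 gene of these 2 lists was called, Gadd45gip1, a large-subunit protein, lower with Piericidin than with 3-NPA (-0.52 ± 0.15, adjusted p = 0.0406). Of 12 mitochondrial translation factors, 2 fell with Piericidin, 1 with 3-NPA and 2 with AntimycinA, and none was called in either knockout. With these inhibitors 13.6%, 3.23% and 15.0% of all genes were called, in that order. The called factors were elongation factors. Gfm1, which moves the ribosome along the mRNA, read 74.7, 61.9 and 57.9 CPM with Piericidin, 62.0, 51.4 and 72.0 CPM with 3-NPA and 49.9, 59.1 and 57.0 CPM with AntimycinA, against 92.0, 84.4 and 115 CPM in Untreated cells. Its log2 fold changes were -0.58 (adjusted p = 0.0104), -0.64 (adjusted p = 0.0162) and -0.81 (adjusted p = 0.000342) in that order. Every inhibitor library of Gfm1 lay below every Untreated library. Tufm, which brings aminoacyl-tRNA to the ribosome, read 44.4, 51.7 and 49.3 CPM with Piericidin and 53.8, 40.9 and 54.8 CPM with AntimycinA, against 75.7, 61.5 and 72.9 CPM in Untreated cells (-0.53, adjusted p = 0.0261, and -0.49, adjusted p = 0.0356).

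The RNAs of mitochondrial DNA, which the mitochondrial ribosome contains or reads, also changed. With 3-NPA and with AntimycinA, both mitochondrial rRNAs rose, in libraries made after poly(A) selection. The small-subunit rRNA mt-Rnr1 ranged over 3253 to 4152 CPM with 3-NPA and 3381 to 3835 CPM with AntimycinA, against 669 to 906 CPM in Untreated cells (log2 fold changes 2.20 and 2.19). The large-subunit rRNA mt-Rnr2 ranged over 3859 to 4810 CPM with 3-NPA and 3065 to 3536 CPM with AntimycinA, against 1398 to 1782 CPM in Untreated cells (1.36 and 1.01). All 7 measured mitochondrial mRNAs fell with 3-NPA (median -1.92) and with AntimycinA (median -1.95), led by mt-Cytb, which encodes cytochrome b of complex III. It ranged over 367 to 512 CPM with 3-NPA and 261 to 444 CPM with AntimycinA, against 2512 to 2975 CPM in Untreated cells. For mt-Nd5, a subunit of complex I, the log2 fold changes were -1.92 with 3-NPA and -2.19 with AntimycinA.

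With Piericidin, mt-Rnr2 fell (-0.33, adjusted p = 0.0114) though its groups overlapped, mt-Rnr1 was not called, 1 of 7 mitochondrial mRNAs rose (mt-Co1, 0.51) and 3 fell, among them mt-Nd2 (-0.51) and mt-Cytb (-0.44). In RISP_KO cells 8 of 12 mitochondrial mRNAs fell (median -0.55). By p, mt-Nd4 (-0.81, adjusted p = 0.000687) and mt-Cytb came first, and mt-Cytb ranged over 1446 to 1678 CPM in RISP_KO, against 2385 to 2906 CPM in RISP_WT (-0.70, adjusted p = 0.000734). In chimeras 1 of 13 fell, mt-Cytb, at 1132 to 2248 CPM in knockout cells, against 2774 to 3782 CPM in wild-type cells (-0.94, adjusted p = 0.021). Neither mitochondrial rRNA was called in a knockout. The in vitro table lists 5 mitochondrial mRNAs at 0 in all libraries, so the lists there are incomplete.

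**Figure D4:**
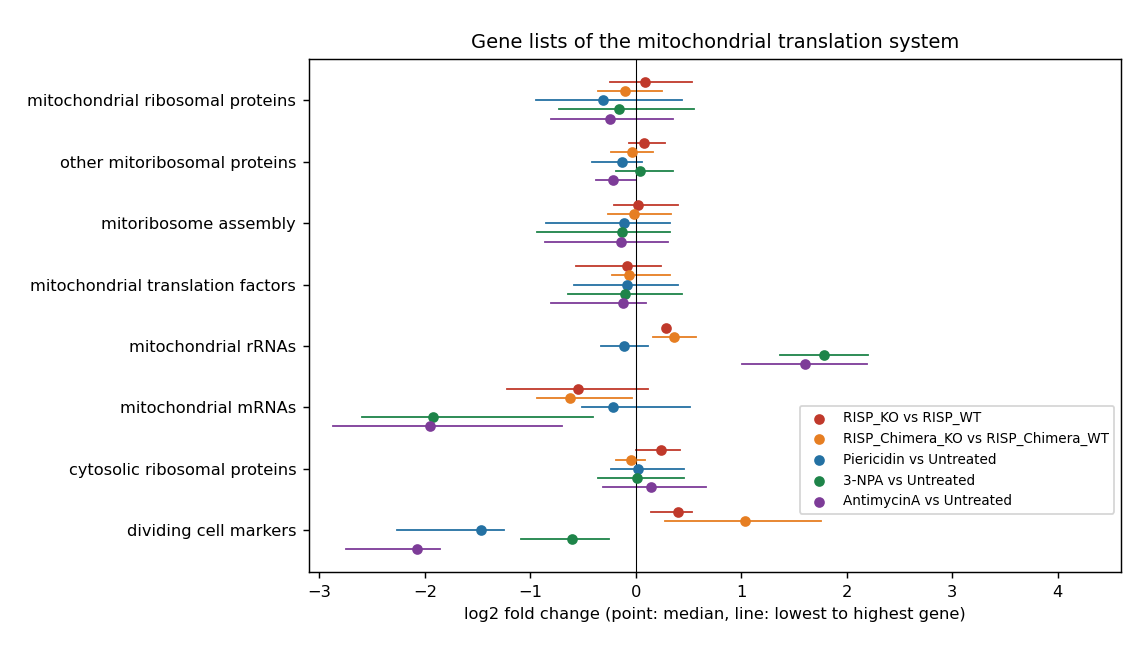
Log2 fold changes of gene lists (point: median, line: lowest to highest gene) in the 2 knockout and 3 inhibitor comparisons. The mitochondrial rRNA and mRNA lists moved apart with 3-NPA (medians 1.78 and -1.92) and AntimycinA (1.60 and -1.95), while the medians of the mitochondrial ribosomal protein genes stayed between -0.31 and 0.09.

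Cytosolic ribosomal proteins, which build the ribosome of the cytosol, were counted in the same way. Of 77 genes, 4 rose in RISP_KO (median 0.24), none was called in chimeras (median -0.05), 2 rose with Piericidin (median 0.02), none with 3-NPA (median 0.01) and 15 rose with AntimycinA (median 0.14). In the same order of comparisons, 9.86%, 0.708%, 13.6%, 3.23% and 15.0% of all genes tested were called in either direction. The difference between the families was not tested.

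Levels within the family were compared per length, as CPM per kb of merged exons in GENCODE M21. The highest levels were those of Mrps21, Mrpl18 and Mrps18c in 3-week-old mice (119, 91.3 and 74.9 CPM per kb), Mrps21, Mrpl52 and Mrps23 in chimeras (46.4, 41.5 and 33.4) and Mrpl12, Mrpl52 and Mrpl24 in vitro (55.1, 47.6 and 44.5). Mrpl53 was lowest in all 3 tables (0.310, 0.603 and 1.51 CPM per kb), with Mrps10 and Mrpl47 next in 3-week-old mice, Mrps10 and Mrpl48 in chimeras and Mrpl23 and Mrps36 in vitro. Medians were 24.4, 10.5 and 15.7 CPM per kb in the 3 tables, which were normalized separately and differ in library kit. Mrpl53 was under a mean of 1 CPM in the 3-week-old table (0.245) and in chimeras (0.477) and just above it in vitro (1.19), and it was tested only in chimeras and for the difference of the knockout effects.

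**Figure D5:**
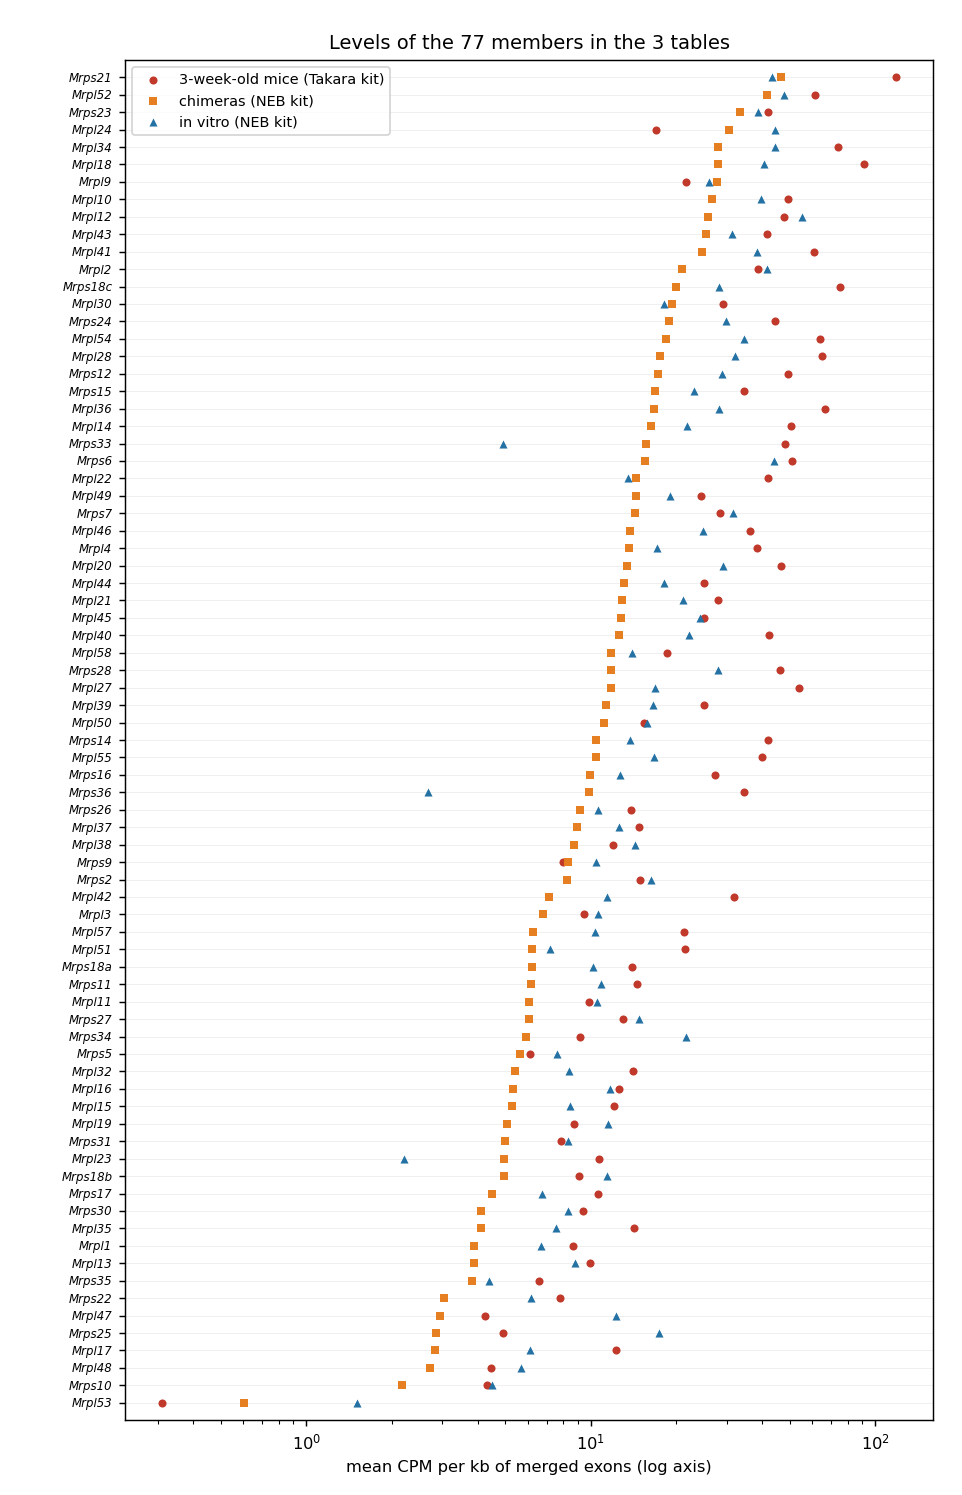
Mean CPM per kb of merged exons (log axis) of the 77 genes in the 3-week-old (circles), chimera (squares) and in vitro (triangles) tables, ordered by the chimera level. Levels ran from 0.310 for Mrpl53 to 119 for Mrps21 in the 3-week-old table, and Mrps33, Mrps36 and Mrpl23 stood out as low in vitro.

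The 3 genes whose symbols go against their place in the structure were not called in any knockout or inhibitor comparison. Mrps18a and Mrps30, named for the small subunit, sit in the large one. Mrps18a read 26.2, 30.9 and 35.5 CPM with Piericidin, against 41.9, 37.1 and 45.3 CPM in Untreated cells (-0.42 ± 0.20, adjusted p = 0.168), without overlap. Mrps30 read 66.9, 42.6 and 45.7 CPM with Piericidin, against 61.4, 68.5 and 40.1 CPM in Untreated cells, with overlap. Mrps36 read 44.2, 40.5, 42.3 and 34.5 CPM in RISP_KO, against 44.9, 44.0, 49.1 and 53.8 CPM in RISP_WT (-0.25 ± 0.11, adjusted p = 0.187). It was the lowest value of the family in that comparison, and in vitro the gene stayed between 0.306 and 6.85 CPM.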

How the data were processed

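The 28 RNA libraries of sorted Treg cells were put into groups by GEO's sample labels. The deposited tables hold raw read counts per Ensembl gene. Per the submitters' processing notes, bcl2fastq, TopHat, HTSeq, edgeR and mm10 were used. Versions and the strand setting are not given in the sources used here. Another 11 per-sample columns whose names match no sample were not used. Libraries held 2707199 to 50769961 counts, so the in vitro values rest on the fewest.

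Tests used R 4.3.3 with edgeR 4.0.16 (filterByExpr by group, TMM, quasi-likelihood F-test, prior count 0.125 for fold changes) and limma 3.58.1. The knockouts were fitted within their table, the inhibitors together over 12 libraries, and the contrast between both knockouts over 16. Calls required an adjusted p (Benjamini-Hochberg, all genes tested) under 0.05. Scripts were tested on simulated data. Alternatives were DESeq2 1.42.0, RLE factors, library totals, no filter, a mean CPM of 1 or more, the replicate block, fits of 2 groups and leaving out each library. Leaving out RISP_Chimera_KO replicates 2 and 4 was added after seeing the data. Figures and summaries used Python 3.11.15, pandas 2.3.3 and matplotlib 3.10.9. No pair of libraries within a group was a duplicate, and pairs across groups were not checked.

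Genes and lists were chosen with earlier results of these data known. Named genes are, per comparison, up to 5 called genes in each direction by p (with none called, the 2 smallest p), those called in 2 tables, for the difference or between inhibitors, the 3 highest and 3 lowest per kb, Mrps18a, Mrps30 and Mrps36, and up to 2 called genes per list of the mitochondrial translation system. Other called genes were named to account for every call. Levels per kb use merged exons of GENCODE M21, because the deposited gene length exceeded the gene's interval for 14 of the 77. The ID of Mrpl33 had no match in the name table and was not analysed here. Libraries with the same number correlated at -0.04 to 0.03 (3-week-old table) and -0.10 to 0.13 (chimera table). Both ranges lay within those of libraries with other numbers (-0.10 to 0.07 and -0.12 to 0.17). In vitro, same-numbered libraries correlated at 0.00 to 0.09 and others at -0.08 to 0.03, so these ranges overlapped only in part. Whether the numbers pair the samples was not tested, and the main fits did not use them.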

Additional observations from a re-analysis of the deposited data

Results flagged for a closer look

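A search over 112 groups of 4 libraries included 25 of the genes named above. It looked for a library far from the other 3, and in 4 groups a library stood apart (a gap to its nearest neighbour above Dixon's critical value). Chance flags about 1 in 20 groups. Mrps18c read 76.5 CPM in RISP_KO replicate 4, below the other knockout libraries, and 17.8 CPM in RISP_Chimera_KO replicate 3, again below the others. Mrpl23 read 43.9 CPM in RISP_WT replicate 1, below the other wild-type libraries. Mrps18a read 22.7 CPM in RISP_Chimera_KO replicate 2, above the others.

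The knockout effect on Mrps34 differed between chimeras and 3-week-old mice by -0.77 in edgeR's test of the difference (adjusted p = 0.0296), from -0.22 in chimeras and 0.53 in 3-week-old mice. The age, the chimerism and the library kit differ along with it.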

How the results depend on the processing

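The number of genes called in RISP_KO (2) was 8 with DESeq2, 1 with library totals alone, 1 with no filter and 0 to 5 with 1 library left out. With 3-NPA (1) it was 3 with DESeq2, 0 with library totals alone, no filter or a mean CPM of 1 or more, 2 in a fit of the 2 groups and 0 to 3 with 1 library left out. With AntimycinA (9) it was 5 with no filter and 3 to 9 with 1 library left out, and with Piericidin (9) it was 7 with no filter (Mrpl34 and Mrpl42 lost) and 6 to 12 with 1 library left out. AntimycinA against 3-NPA (0) gave 0 to 1 with 1 library left out. Piericidin against 3-NPA (2) gave 1 with no filter, a mean CPM of 1 or more or a fit of the 2 groups, and 0 to 2 with 1 library left out. The difference of the knockout effects (1) gave 2 with DESeq2, 0 with library totals alone or no filter and 0 to 2 with 1 library left out. The replicate block is a description, since whether the numbers pair the samples was not tested. With it, the counts were 0 in RISP_KO, 0 in chimeras, 12 with Piericidin, 3 with 3-NPA and 9 with AntimycinA. They were 2 for Piericidin against 3-NPA and 0 for the difference. In chimeras every alternative gave 0, also without RISP_Chimera_KO replicates 2 and 4. Medians of the family kept their sign in all 165 values. Of these, 11 moved by at least the SD of the family's mean log2 CPM among libraries of the group compared against. For the difference of the knockout effects, the larger SD of the wild-type groups was used. Of 841 values of 47 named fold changes, 101 lost their call and 10, none of them called, changed sign with 1 library left out. Their ranges with 1 library left out were -0.016 to 0.053 for Mrpl19 with 3-NPA (below 0 without 3-NPA replicate 1 or, at -0.0025, Untreated replicate 3), -0.060 to 0.12 for Mrpl19 in chimeras (without RISP_Chimera_KO replicate 3), -0.037 to 0.11 for Mrps18a with 3-NPA (without Untreated replicate 2) and -0.054 to 0.078 for Mrps18a in RISP_KO (without replicate 1). Mrps30 ranged over -0.12 to 0.23 with 3-NPA (below 0, at -0.037, without 3-NPA replicate 2 and without Untreated replicate 3), -0.28 to 0.090 with AntimycinA and -0.37 to 0.021 with Piericidin (both above 0 without Untreated replicate 2), and -0.14 to 0.0040 in chimeras (above 0 without RISP_Chimera_KO replicate 4). The cause was not tested. In vitro libraries were the shallowest, and genes such as Mrpl53 and Mrps36 rested there on few counts.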

Other observations

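Some members stood at other places in vitro than in the cells taken from mice, in tables that were normalized separately and differ in kit and depth. Mrps33, a mitochondrion-specific small-subunit protein, was at 48.3 CPM per kb in the 3-week-old table, 15.6 for chimeras and 4.89 in vitro. In the same order, Mrps36 was at 34.7, 9.86 and 2.69 CPM per kb, and Mrpl23 at 10.7, 4.96 and 2.20 CPM per kb. Mrps25, another mitochondrion-specific small-subunit protein, ran the other way, at 4.92, 2.87 and 17.4 CPM per kb. These genes other than Mrps36 and Mrpl23 were chosen after their values were seen, and no test was run across the tables.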
